A study of Homo sapiens with 4 samples.

Results

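Immediate early genes are the genes that a cell transcribes first after a growth factor, serum or stress signal, from factors that are already in the cell. The set described here holds 10 genes, chosen by name with earlier results of these data known. They are the AP-1 subunits FOS, FOSB, JUN, JUNB and JUND and the zinc finger factor EGR1. The others are the response genes IER2 and IER3, the phosphatase gene DUSP1, and MYC. Each was taken from the entry of the deposited gene table that names it, and where several entries name a gene, the entry with the highest mean count was used. All 10 had an entry among the 62778 that name a gene, and all 10 were among the 26167 entries that passed the filter on low counts and were tested.

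The cells were K562, an established erythroleukemia line that carries the BCR-ABL1 fusion kinase, made to overexpress the S34F mutant of the splicing factor U2AF1 (K562-U2AF1_S34F). Both groups carry this mutant, and parental K562 cells or cells with wild-type U2AF1 were not analysed here. The DMSO group (2 libraries) was given the solvent and the SF1-8 group (2 libraries) was given 30 uM SF1-8, a small molecule directed at the UHM domain of U2AF1, and both were harvested at 48 h. The labels do not say whether the 2 libraries of a group came from separate cultures, so p-values measure only the spread between these libraries, which may be technical. RNA-seq of total RNA depleted of ribosomal RNA gave between 45522905 and 67554610 counts per library, with DMSO 1 the shallowest.

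In resting cells the immediate early genes are mostly quiet. Growth factor receptors and oncogenic kinases such as BCR-ABL1 signal through RAS and the kinases ERK, JNK and p38 to factors that sit on their promoters in advance, among them serum response factor with its ELK partners and CREB. FOS and JUN proteins then pair as AP-1, EGR1 binds GC-rich sites, and DUSP1 removes the phosphates from the kinases and so closes the loop. The messenger RNAs of this class are short-lived, since AU-rich elements near their ends recruit decay factors, and their genes are short. MYC, which pairs with MAX and drives growth, ribosome production and metabolism, shares this rapid turnover and is needed by leukemia cells.

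The short gene bodies are visible in the annotation. In GENCODE release 29 the median span of the 10 genes was 3498.5 bp, against 30691 bp for the 13785 tested coding genes. In the principal transcript of each gene (the longest coding sequence where several qualify), all 10 had at most 4 exons, as did 22.4% of the tested coding genes, and JUN, JUNB and JUND had 1 exon. The median was 2 exons, against 9 over the tested coding genes.

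The promoters show which control sequences these genes share. RefSeq promoters (GRCh38.p14, 250 bases before to 50 bases after the start) were matched for 8 of the 10 genes, and IER3 and MYC were not in the promoter table. Motifs were searched on both strands. They were the CArG box of serum response factor, the full cyclic AMP response element TGACGTCA to which CREB binds, and its first 5 bases as a shorter motif. Further motifs were TGANTCA for AP-1, the E-box CACGTG for MYC with MAX, and the TATA box TATAAA near the start. The shorter motif lies within the full cyclic AMP response element, so matches of the longer one are counted in both. All 8 promoters held the shorter motif, TGACG, which 24.6% of 35116 promoters of this length hold, but this shorter motif was chosen after the sequences had been seen. In the lines below, which are shown because this is the motif the promoters have in common, capitals mark this motif or, where the other strand carries it, its complement CGTCA, and each sequence is given 5′ to 3′ on the strand of the gene.
FOS, chr14:75278746-75278785, plus strand: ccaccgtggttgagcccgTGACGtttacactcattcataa
FOSB, chr19:45467918-45467957, plus strand: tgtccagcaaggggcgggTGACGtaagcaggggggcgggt
JUN, chr1:58784149-58784188, minus strand: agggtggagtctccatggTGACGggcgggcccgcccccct
JUNB, chr19:12791331-12791370, plus strand: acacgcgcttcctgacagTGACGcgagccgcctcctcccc
JUND, chr19:18281687-18281726, minus strand: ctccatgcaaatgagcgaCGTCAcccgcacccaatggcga
EGR1, chr5:138465395-138465434, plus strand: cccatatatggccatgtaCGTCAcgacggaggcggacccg
IER2, chr19:13150253-13150292, plus strand: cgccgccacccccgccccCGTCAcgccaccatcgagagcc
DUSP1, chr5:172771285-172771324, minus strand: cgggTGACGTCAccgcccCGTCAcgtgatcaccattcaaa

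The match nearest to the start lay 60 to 140 bases upstream in these 8 promoters, at 64 bases in FOS and 60 bases in FOSB. The full TGACGTCA was in JUND, 200 bases upstream, and in DUSP1, 125 bases upstream, against 1.85% of all promoters. CACGTG was in DUSP1 alone of the 8 (7.26% of all promoters) and TGANTCA was in none of the 8 (7.71%). TATAAA was in FOS, FOSB, JUNB and DUSP1 (11.5% of all promoters). The CArG box was found in EGR1 alone of the 8, against 1.29% of all promoters, in copies 105 and 83 bases upstream. The EGR1 stretch is shown because it holds a pair of these boxes, in capitals, beside the TGACG match shown above.
EGR1, chr5:138465364-138465415, plus strand: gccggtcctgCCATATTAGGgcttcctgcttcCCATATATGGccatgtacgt
A match describes these letters and not a bound site, and a motif that is absent from these windows can lie elsewhere.

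CREB1, which encodes the factor that binds TGACGTCA, is named here outside the rule for named genes, after its values were seen. Its FPKM was 4.07 and 3.56 under DMSO against 1.17 and 1.34 under SF1-8, a log2 fold change of -1.56 (SE 0.114, adjusted p = 0.0556 in the quasi-likelihood test of edgeR). At the same log2 fold change CREB1 passed with DESeq2 (adjusted p = 4.07e-21) and, in edgeR, with no filter on low counts (adjusted p = 0.00729). DUSP1 and JUND, the 2 genes with the full element, passed in neither of these settings, and their values are given below. CREB1 did not pass in edgeR with RLE scaling (adjusted p = 0.0557), counts divided by 4 (0.054) or the replicate number as a block (0.17). Nor did it pass with limma on log2(FPKM + 1) (0.514) or log2(FPKM + 0.1) (0.38). With a library left out its log2 fold change ran from -1.66 to -1.48. Whether the level of CREB1 bears on any of these genes was not tested.

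Levels are given as FPKM, fragments scaled by the authors to gene length and library depth, which can be compared between genes. Fold changes and p-values come from edgeR's quasi-likelihood test on the deposited counts, SF1-8 against DMSO, with Benjamini-Hochberg adjustment over all 26167 genes tested. None of the 10 genes passed an adjusted p of 0.05 by edgeR (0.042% of all tested genes did), and none had an unadjusted p under 0.05 (4.33% did), in either direction (1.78% of all tested genes were higher with SF1-8 at that threshold and 2.54% were lower). The unadjusted p of the 10 genes, by edgeR, was 0.104 at the smallest, for FOSB, and the adjusted p lay between 0.97 and 0.999. Since these are bulk samples, fewer cells that use a gene and less RNA per cell cannot be told apart.

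The 10 genes split into 4 with a log2 fold change above 0 and 6 below 0. Their median log2 fold change was -0.0197, and that of all tested genes was -0.0106. The median size of the log2 fold change was 0.0859, against 0.22 over all tested genes, and 7 of the 10 were under 0.11 in size. The background was not matched for level. Of the 26167 tested genes, 14086 had a mean FPKM of at least 1, and fold changes of weakly expressed genes vary more. The smaller size can therefore not be read as a trait of the 10 genes. The 95% interval of the fold change lay within 2-fold in both directions for 7 of the 10 genes, all but FOS, FOSB and MYC, so for those 3 a 2-fold decrease is inside the interval.

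**Figure D1:**
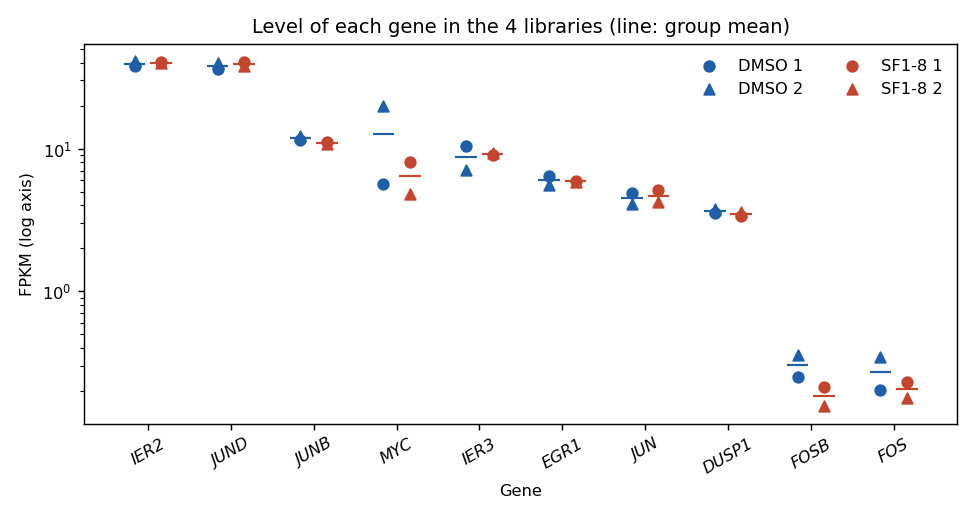
FPKM (log axis) of each of the 10 genes in the 4 libraries, with circles and triangles for replicates 1 and 2, blue for DMSO, red for SF1-8 and a line at each group mean. IER2 and JUND sit near 40 in every library, FOS and FOSB sit under 0.4, and MYC is the gene whose DMSO libraries lie farthest apart, at 5.65 and 19.8.

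The genes spanned a wide range of levels. IER2 had the highest mean FPKM and overlapped with JUND, the next. JUNB followed, then MYC, IER3, EGR1, JUN and DUSP1, and FOSB and FOS were the lowest. In this order JUNB overlapped with MYC over the 4 libraries, MYC with IER3, and FOSB with FOS, while the other neighbours did not overlap.

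FOS and FOSB, the FOS family subunits among the 10 genes, stayed under an FPKM of 0.4 in every library. FOS, the partner of JUN that gives AP-1 its strongest DNA binding, is on chr14:75278826-75281636 (plus strand, hg38). The DMSO libraries 1 and 2 had an FPKM of 0.204 and 0.344, and the SF1-8 libraries 1 and 2 had 0.23 and 0.18. The DMSO values lie on either side of the higher SF1-8 value, so the groups overlap. These levels rest on 41 to 89 counts per library. The difference on the log2 scale was -0.41 (SE 0.414, adjusted p = 0.97 in the quasi-likelihood test of edgeR), about the size of its standard error, and the interval of the fold ran from 0.362 to 1.56. Without DMSO 2 the log2 fold change was -0.00681, and without DMSO 1 it was -0.72.

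FOSB, which can stand in for FOS and is best known for its lasting truncated form in neurons, is on chr19:45467995-45475178 (plus strand). Levels were 0.25 and 0.357 FPKM in DMSO libraries 1 and 2 against 0.215 and 0.156 FPKM in SF1-8 libraries 1 and 2. Both SF1-8 libraries lay below both DMSO libraries, an order that 20.0% of all tested genes show in this direction and 14.2% in the other. The log2 fold change was -0.69 (SE 0.348, adjusted p = 0.97 in the quasi-likelihood test of edgeR), with 71 to 162 counts per library. Its size ranged from -0.95 without SF1-8 1 to -0.37 without DMSO 2. The FOSB entry lies inside that of ERCC1, a DNA repair gene on the opposite strand with an FPKM of 4.88 to 5.93, and the strand setting of the counting is not given in the sources used here. Reads of ERCC1 can therefore not be told apart from reads of FOSB.

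JUN, JUNB and JUND were each expressed above FOS and FOSB in every library, and none of these 3 passed the test between the groups. JUN, the founding AP-1 subunit and the substrate of the kinase JNK, is on chr1:58780791-58784047 (minus strand). In FPKM, the level was 4.92 and 4.12 in DMSO 1 and 2 and 5.14 and 4.2 in SF1-8 1 and 2. The higher and the lower libraries fall in both groups, which overlap, and the log2 fold change was 0.0775 (SE 0.156, adjusted p = 0.977 in the quasi-likelihood test of edgeR).

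JUNB, a weaker activator than JUN that restrains myeloid growth, is on chr19:12791486-12793315 (plus strand). The DMSO libraries 1 and 2 had an FPKM of 11.4 and 12.2, and the SF1-8 libraries 1 and 2 had 11.1 and 10.7. In FPKM both SF1-8 libraries lay just below both DMSO libraries. In CPM, the counts scaled to library depth by TMM, they did not, with 25.4 and 28.7 for DMSO and 26.0 and 24.7 for SF1-8. SF1-8 against DMSO gave a log2 fold change of -0.0924 (SE 0.118, adjusted p = 0.97 in the quasi-likelihood test of edgeR), and it was -0.000709 without DMSO 2. The entry of HOOK2 and RTBDN overlaps JUNB on the other strand at an FPKM of 0.797 to 0.92.

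JUND, the subunit that cells express without stimulation and that slows proliferation, is on chr19:18279694-18281622 (minus strand). Levels were 35.9 and 39.5 FPKM in DMSO libraries 1 and 2 against 40.5 and 37.7 FPKM in SF1-8 libraries 1 and 2. DMSO 1 was the lowest and SF1-8 1 the highest, and the groups overlap. The log2 fold change was 0.0793 (SE 0.105, adjusted p = 0.97 in the quasi-likelihood test of edgeR), with an interval of the fold from 0.878 to 1.27.

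By the count of genes whose groups did not overlap, 2 of the 10, FOSB and JUNB, were lower with SF1-8 in FPKM and 0 were higher, against 20.0% and 14.2% of all tested genes. In CPM only FOSB of the 10 kept this order. The share of the 10 genes is thus at the background in the lower direction.

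EGR1 is the immediate early zinc finger factor that ERK signaling turns on through CArG boxes such as those printed above, and it sits on chr5:138465479-138469303 (plus strand). In FPKM, the level was 6.45 and 5.57 in DMSO 1 and 2 and 5.97 and 5.8 in SF1-8 1 and 2. Both SF1-8 values lie between the DMSO values. On the log2 scale the fold change was -0.000747 (SE 0.108, adjusted p = 0.999 in the quasi-likelihood test of edgeR), the smallest of the 10 genes in size, and the interval of the fold ran from 0.826 to 1.21.

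IER2 was the most expressed of the 10 genes and the steadiest across libraries. It encodes a nuclear protein induced by growth factors and is on chr19:13150411-13154911 (plus strand). The DMSO libraries 1 and 2 had an FPKM of 37.9 and 40.9, and the SF1-8 libraries 1 and 2 had 40.3 and 39.8, so that the highest library exceeded the lowest 1.08-fold. The log2 fold change was 0.0477 (SE 0.0898, adjusted p = 0.973 in the quasi-likelihood test of edgeR). A second, short entry of the same name at chr19:13156045-13156298 had an FPKM of 1.79, 0.806 and 0.193 in DMSO 1, SF1-8 1 and SF1-8 2 and was listed at 0 in DMSO 2.

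IER3, a survival factor of the stress and ERK response, is on chr6:30743199-30744548 (minus strand). Levels were 10.4 and 7.11 FPKM in DMSO libraries 1 and 2 against 9.01 and 9.29 FPKM in SF1-8 libraries 1 and 2. The DMSO libraries were the highest and the lowest, with both SF1-8 libraries between them. The difference on the log2 scale was 0.1 (SE 0.189, adjusted p = 0.973 in the quasi-likelihood test of edgeR), and it ran from -0.11 without DMSO 2 to 0.35 without DMSO 1. The antisense entry IER3-AS1 overlaps it at an FPKM of 0.327 to 0.708.

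DUSP1, the phosphatase that switches off p38, JNK and ERK, is on chr5:172768096-172771195 (minus strand). In FPKM, the level was 3.51 and 3.78 in DMSO 1 and 2 and 3.39 and 3.6 in SF1-8 1 and 2. The groups overlap, and the log2 fold change was -0.0386 (SE 0.147, adjusted p = 0.989 in the quasi-likelihood test of edgeR). For this brake on the pathway the interval of the fold ran from 0.751 to 1.26.

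**Figure D2:**
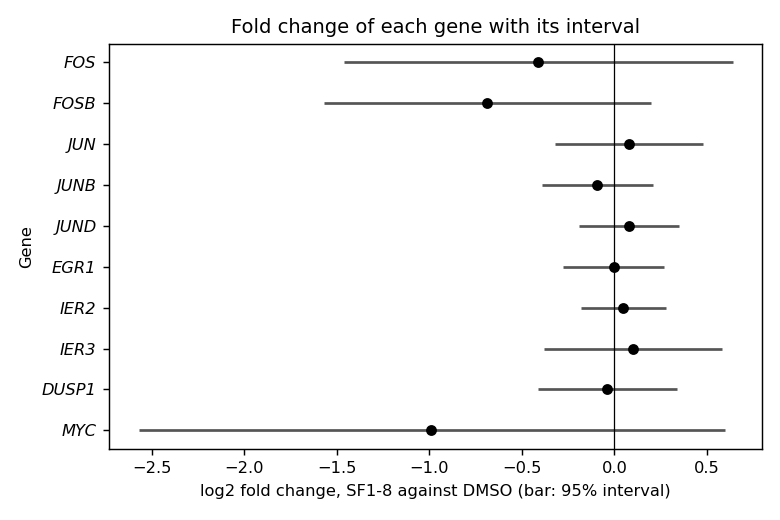
Log2 fold change of each gene with SF1-8 against DMSO, from edgeR's quasi-likelihood fit, with a bar for the 95% interval and a line at 0. All 10 bars cross 0, and those of FOS, FOSB and MYC are the widest, MYC from -2.57 to 0.6.

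MYC had the largest log2 fold change of the 10 genes, and it rested on 1 control library. The gene is on chr8:127735434-127742951 (plus strand). The DMSO libraries 1 and 2 had an FPKM of 5.65 and 19.8, and the SF1-8 libraries 1 and 2 had 8.0 and 4.78. DMSO 2 stood above the other 3 libraries, and DMSO 1 lay between the SF1-8 libraries, so the groups overlap. The group means were 12.7 ± 9.97 (SD, n = 2) for DMSO and 6.39 ± 2.28 (SD, n = 2) for SF1-8. The counts behind these levels were 1503, 7327, 3070 and 1774. The log2 fold change was -0.99 (SE 0.623, adjusted p = 0.97 in the quasi-likelihood test of edgeR), and the interval of the fold ran from 0.168 to 1.52.

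Leaving out DMSO 2 turned the direction of the MYC difference, to a log2 fold change of 0.24 (adjusted p = 0.866 by edgeR). Leaving out DMSO 1 gave -1.64 (adjusted p = 0.526 by edgeR), leaving out SF1-8 1 gave -1.41, and leaving out SF1-8 2 gave -0.66. With 1 library in a group, the lone library is assumed to vary like the other group. The DMSO libraries differed 3.49-fold in FPKM, and by 1.88 on the log2 scale of CPM. Among the 14086 tested genes with a mean FPKM of at least 1, 96 differed between the DMSO libraries by at least as much in the same direction and 104 in the other, together 1.42%. The SF1-8 libraries differed less, with SF1-8 2 at 0.597 times SF1-8 1.

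PVT1 and the MYC target genes did not share the high level of MYC in DMSO 2. The entry of PVT1, the noncoding gene downstream of MYC, which is merged with 5 small or noncoding genes, had an FPKM of 1.07, 1.06, 1.22 and 1.1 in DMSO 1, DMSO 2, SF1-8 1 and SF1-8 2. CASC11, which starts upstream of MYC on the other strand, was at or below 0.00904 in every library, too low to compare. Of 24 genes that MYC is known to activate, 7 were highest and 7 were lowest in DMSO 2. The highest library exceeded the lowest 1.03-fold to 1.65-fold over these 24 genes, with a median of 1.14, while for MYC itself this ratio was 4.14. Among them NPM1, a nucleolar chaperone, had an FPKM of 223, 193, 202 and 217, and ODC1, the first enzyme of polyamine synthesis, had 199, 203, 202 and 210, in the same order of libraries.

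**Figure D3:**
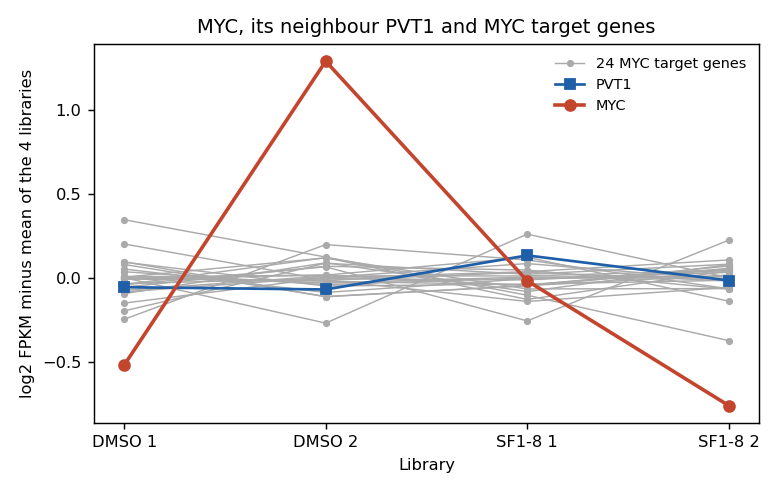
Log2 FPKM minus its mean over the 4 libraries (vertical axis) in each library (horizontal axis) for MYC in red, PVT1 in blue and 24 MYC target genes in grey, where lines only join the values of 1 gene. MYC stands out in DMSO 2, while PVT1 and the targets lie close to 0 there.

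The genes whose pattern over the 4 libraries was nearest to that of MYC were weakly expressed. By the Euclidean distance between centred log2 CPM values, the nearest single-gene entries were C17orf99 (distance 0.0837), AC012435 (0.133) and AC022726 (0.151). C17orf99 had an FPKM of 0.432, 1.67, 0.636 and 0.346 in DMSO 1, DMSO 2, SF1-8 1 and SF1-8 2. The nearest to FOS were MT2A (0.0622), MDGA1 (0.079) and PAPLN (0.0877). MT2A, a metallothionein that binds zinc, had an FPKM of 2.11, 3.13, 2.34 and 1.72 in the same order. With 4 libraries and 26167 genes, near patterns are found for many shapes, and no more was read from them.

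**Figure D4:**
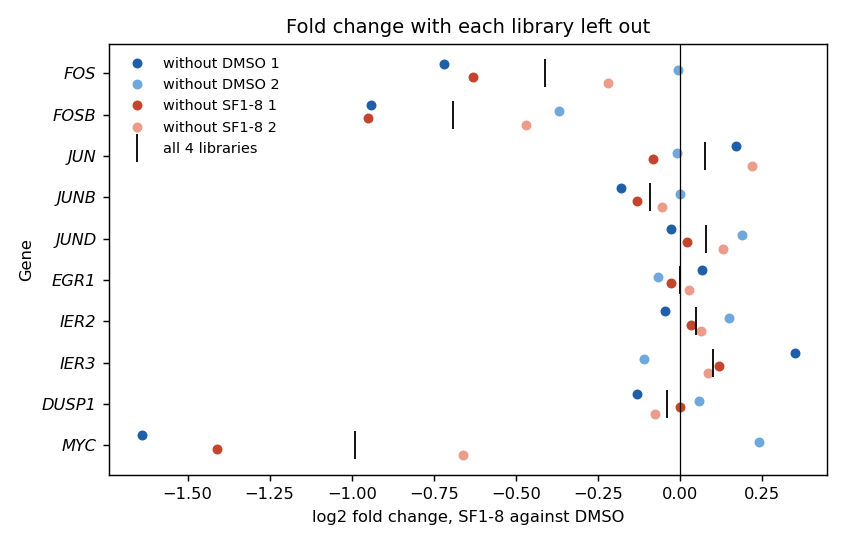
Log2 fold change of each gene with all 4 libraries (vertical tick) and with each library left out in turn (points). The points of MYC spread from -1.64 to 0.24, FOS and FOSB stay below 0, and the other 7 genes stay between -0.18 and 0.35.

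Over the 4 libraries, DMSO 2 was the highest for 6 of the 10 genes and the lowest for 3, while SF1-8 2 was the lowest for 4 and the highest for 0. FOS, FOSB, JUNB and MYC shared the order of DMSO 2 as the highest and SF1-8 2 as the lowest. The share of all tested genes with such orders was not computed, so these counts cannot be read as a trait of the 10 genes. Without DMSO 2, the log2 fold change moved from -0.41 to -0.00681 for FOS, from -0.69 to -0.37 for FOSB, from -0.0924 to -0.000709 for JUNB and from -0.99 to 0.24 for MYC. These genes were picked because DMSO 2 is their highest library, so the direction of this move follows from the choice and is no further result.

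Other genes of the same response were taken from a list of 30 further immediate early genes, of which 29 were tested. None passed an adjusted p of 0.05 in the quasi-likelihood test of edgeR, and the median log2 fold change was 0.0317, with 18 above 0 and 11 below. Before adjustment, 3 of them had a p under 0.05 by edgeR with a higher level in the SF1-8 libraries and 1 with a lower level. Over all tested genes, 1.78% were higher and 2.54% were lower at that threshold. ATF3, a stress-induced partner of JUN, had an FPKM of 0.321 and 0.127 under DMSO against 0.763 and 0.775 under SF1-8, a log2 fold change of 1.82 (SE 0.438, adjusted p = 0.97 by edgeR and 0.0518 by DESeq2). Its SF1-8 libraries lay close together and above both DMSO libraries, and the log2 fold change ran from 1.32 to 2.54 with a library left out.

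NR4A1, an orphan nuclear receptor, had an FPKM of 0.181 and 0.158 under DMSO against 0.283 and 0.299 under SF1-8, a log2 fold change of 0.76 (SE 0.241, adjusted p = 0.97 by edgeR). KLF6, a zinc finger factor, had 2.99 and 2.51 under DMSO against 3.43 and 3.48 under SF1-8, a log2 fold change of 0.36 (SE 0.108, adjusted p = 0.97 by edgeR). The gene that was lower, CCN2, encodes a secreted matrix protein, and its FPKM was 1.6 and 0.806 with DMSO and 0.23 with SF1-8 1, while it was listed at 0 in SF1-8 2 (adjusted p = 0.97 by edgeR). The most expressed of this list, the kinase gene PIM1, had an FPKM of 89.5 and 88.0 under DMSO against 90.4 and 87.4 under SF1-8. MCL1, a survival factor of the BCL2 family, had 30.4 and 24.5 under DMSO against 24.9 and 30.0 under SF1-8, with overlapping groups in both genes.

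**Figure D5:**
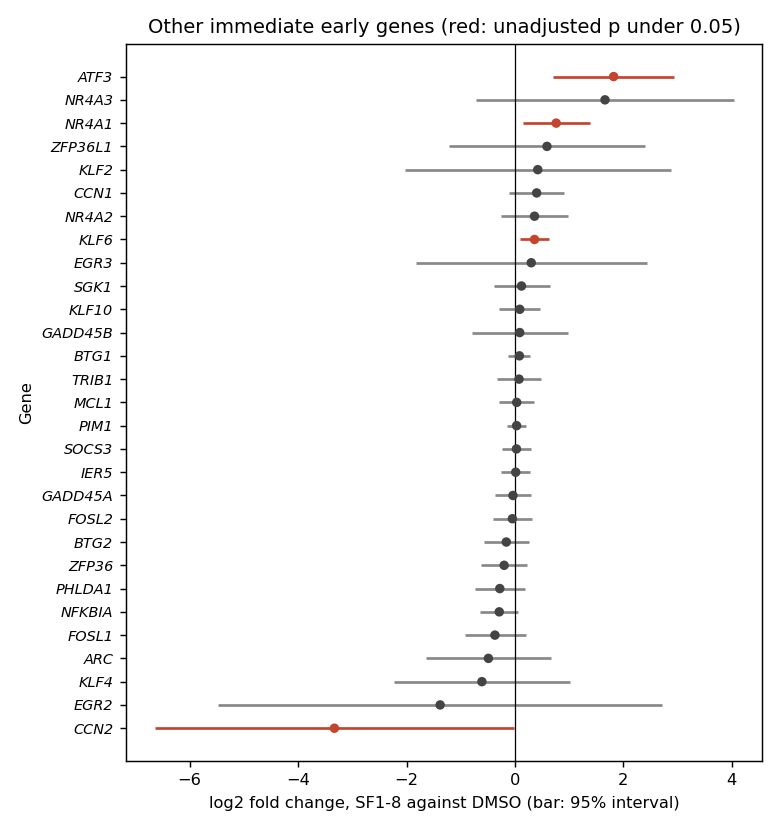
Log2 fold change with SF1-8 against DMSO of the 29 tested genes in the list of further immediate early genes, with a bar for the 95% interval from edgeR's quasi-likelihood fit and red for an unadjusted p under 0.05. ATF3, NR4A1 and KLF6 lie above 0 and CCN2 below, and the bars of the other genes cross 0.

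CCN2 is also a gene of stromal cells, and most of a list of 10 stromal markers had lower values with SF1-8. Their FPKM summed to 13.8 and 7.12 in the DMSO libraries 1 and 2 and to 3.91 and 1.06 in the SF1-8 libraries 1 and 2. With SF1-8, 9 of the 10 were lower, 6 of them at an unadjusted p under 0.05 by edgeR, against 2.54% of all tested genes. The list was chosen with earlier results of these data known. It holds COL1A1, COL1A2, COL3A1 and COL6A1, which the study names as down-regulated in these treated cells. This count is therefore no independent support for a lower stromal signal. None of the 10 markers passed an adjusted p of 0.05 by edgeR. LUM, a defining stromal proteoglycan, was low under DMSO, at 0.17 and 0.087, and was listed at 0 in both SF1-8 libraries. DCN, another, had 0.0815 and 0.0161 under DMSO, 0.00328 in SF1-8 1, and was listed at 0 in SF1-8 2. COL1A2 had 2.16 and 1.22 under DMSO against 0.729 and 0.399 under SF1-8, and COL6A1 had 0.437 and 0.229 against 0.0918 and 0.102. THY1 went the other way, with a log2 fold change of 0.15. CCN2 has the same order of libraries as the summed FPKM of these markers. The share of all tested genes with that order was not computed. The part of this signal in the CCN2 result, or in the values of the 10 genes, was not tested.

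Upstream of the 10 genes, the ERK pathway and its serum response factors (22 genes, all tested) held 15 genes above 0 and 7 below, with a median log2 fold change of 0.0575 and none at an unadjusted p under 0.05. NRAS, a RAS protein upstream of the kinases and among the more expressed genes of this list, had an FPKM of 47.0 to 51.7. The stress kinase pathway of JNK and p38 (13 genes, all tested) had 5 above 0 and 8 below, with a median of -0.0066 and none at that threshold. In that list MAPK14, which encodes p38 alpha, had an FPKM of 11.4 and 5.36 under DMSO against 11.2 and 10.6 under SF1-8, with DMSO 2 the low library. Of the 13 further feedback inhibitors of the MAPK pathway, 11 were tested, 9 of them above 0 and 2 below, with a median of 0.0618 and none at that threshold. The inhibitors with the highest level were SPRED2, at 10.2 to 11.4, and SPRED1, at 6.81 to 7.72.

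Beside the AP-1 subunits, 14 genes for further AP-1 partners were tested, 11 above 0 and 3 below, with a median log2 fold change of 0.15. Before adjustment, 2 of these passed 0.05, both higher with SF1-8 (1.78% of all tested genes were): ATF3, already counted above, and MAFK. MAFK, a small MAF protein that pairs with NRF2 and BACH1, had an FPKM of 4.03 and 2.46 under DMSO against 5.7 and 5.73 under SF1-8, a log2 fold change of 0.85 (SE 0.221, adjusted p = 0.97 by edgeR). Its relative MAFG had 10.8 and 6.03 under DMSO against 5.68 and 11.5 under SF1-8, so that the low and the high libraries fell in both groups. ATF2, the partner of JUN at cyclic AMP response elements, had 7.98 and 8.61 under DMSO against 8.92 and 8.83 under SF1-8.

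The partners and regulators of MYC and MAX (19 genes, 18 tested) had 15 genes above 0 and 3 below, with a median log2 fold change of 0.0878. MNT, the repressor that competes with MYC for MAX, was lower at an unadjusted p under 0.05, as were 2.54% of all tested genes. Its FPKM was 2.48 and 2.81 under DMSO against 1.67 and 1.63 under SF1-8, a log2 fold change of -0.66 (SE 0.131, adjusted p = 0.747 by edgeR). By DESeq2 the adjusted p of MNT was 0.028, and over the alternatives of edgeR and limma it stayed above 0.05. RUVBL2, a helicase that binds MYC, had an FPKM of 45.4 to 48.9, and HUWE1, a ubiquitin ligase that targets MYC protein, had 31.3 to 34.3.

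Of the 24 MYC target genes, 19 were above 0 and 5 below, with a median log2 fold change of 0.0423. One of them, PTMA, which encodes prothymosin alpha, was lower at an unadjusted p under 0.05, as were 2.54% of all tested genes. PTMA had an FPKM of 168 and 144 under DMSO against 123 and 102 under SF1-8. Its log2 fold change was -0.44 (SE 0.114, adjusted p = 0.97 by edgeR). PTMA shares its entry with AC073476 and MIR1244-1. Of 10 listed factors that bind AU-rich elements or take part in the turnover of messages, 6 were above 0 and 4 below. Their median was 0.0485, with none at an unadjusted p under 0.05. KHSRP, a decay factor that binds AU-rich elements, had an FPKM of 70.5 to 72.2, and CNOT1, the scaffold of the deadenylase complex, had 38.8 to 42.0.

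Counted once each, 135 genes of these 8 lists were tested, and before adjustment 7 of them (5.19%) passed 0.05 by edgeR, against 4.33% of all tested genes. None passed an adjusted p of 0.05, and the smallest adjusted p, that of MNT, was 0.747. The median log2 fold change over all tested genes was -0.0106, but their share above 0 was not computed. The counts above and below 0 can therefore not be read as a trait of any of these lists.

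DMSO 1 stood slightly apart from the other libraries, with correlations of log2 CPM across genes of 0.953 to 0.956 with each of them, against 0.964 to 0.966 among the other 3. DMSO 2 was thus nearer to both SF1-8 libraries than to DMSO 1. Erythroid markers were present in all 4, with GATA1 at an FPKM of 75.9 to 79.1 and TFRC at 95.7 to 116, and the endothelial markers VWF and CDH5 were listed at 0 in all 4. Summed FPKM was 3.85 to 5.45 for 3 T cell markers, most of it CD3D, 0.353 to 0.502 for 3 B cell markers and 4.23 to 5.84 for 3 monocyte markers, most of it LYZ. U2AF1, the gene that the cells overexpress in mutant form, had an FPKM of 11.4 and 11.5 under DMSO against 11.9 and 12.0 under SF1-8 (log2 fold change 0.085, adjusted p = 0.97 by edgeR). The near-identical copy U2AF1L5 had 11.1 to 11.4, so reads can be split between the copies, and these totals do not separate mutant from wild-type RNA.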

How the data were processed

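RNA-seq libraries of 2 DMSO and 2 SF1-8 samples were grouped by their labels. The submitters' processing notes name cutadapt, FastQC, Bowtie2, HISAT2, StringTie and hg38, without versions or roles, and the strand setting is not given in the sources used here. The authors deposited FPKM, normalized for length and depth, with 0.0001 in place of 0. They also deposited whole-number counts, taken here as estimated counts, since 4 is the commonest value above 0 and 8 the next. Since a count is thus not 1 read, counting error is unknown, and the spread between replicates gives the precision. Of 64873 entries, 2088 name more than 1 gene. The 2095 that name none (0.372% of counts) were left out.

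Counts were scaled by TMM, filtered by filterByExpr and tested with edgeR's quasi-likelihood test (edgeR 4.0.16, R 4.3.3), adjusted by Benjamini-Hochberg. The study's text states no test for these data. The scripts were tested on simulated counts. Alternatives were RLE factors, DESeq2 1.42.0 on the filtered genes, no filter, counts divided by 4, the replicate number as a block, limma 3.58.1 on log2(FPKM + 1) and log2(FPKM + 0.1), and leaving out each library.

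The 10 genes and the lists were chosen with earlier results of these data known. Named by value were the 10 genes, U2AF1, the list genes with an unadjusted p under 0.05 (at most 4 a list), the 2 most expressed of each list, the 3 genes nearest to FOS and to MYC in pattern, and genes sharing an entry with these. Other genes are values given beside a result. The values of 1 gene that the rule names are not reported here. The motifs TGACG and TATAAA were added after the promoter sequences had been seen.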

Additional observations from a re-analysis of the deposited data

How the results depend on the processing

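Over the 11 alternatives, 0 of the 10 genes passed an adjusted p of 0.05, and the smallest adjusted p was 0.526, for MYC without DMSO 1. Of 110 fold changes of the 10 genes, 97 kept their direction and 13 changed sign. EGR1, at -0.000747, turned to 0.00254 with RLE factors, 0.00292 with DESeq2, 0.00731 with no filter on low counts and 0.000355 with the replicate number as a block. Leaving out each library in turn gave -0.0659 to 0.0659 for EGR1, -0.0266 to 0.19 for JUND, -0.0461 to 0.15 for IER2, -0.0822 to 0.22 for JUN, -0.11 to 0.35 for IER3, -0.13 to 0.0576 for DUSP1 and -1.64 to 0.24 for MYC, where DMSO 2 set the sign.

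The number of genes at an adjusted p under 0.05 was 11 and changed to 163 with DESeq2, 31 with no filter on low counts, 0 with the replicate block and 0 with limma at either pseudocount. It was 0 to 20 with a library left out, 0 without DMSO 1, 17 without DMSO 2 and 20 without SF1-8 1, and the cause was not tested. Of the 10 genes, 0 to 1 had an unadjusted p under 0.05 with a library left out, and of the list genes 7 to 12 (12 without DMSO 1), against 7. CREB1 passed with DESeq2 (adjusted p = 4.07e-21) and in edgeR with no filter (0.00729), with a log2 fold change of -1.56 in both. It did not pass in edgeR with RLE factors (0.0557), counts divided by 4 (0.054) or the replicate block (0.17), nor with limma (0.514 and 0.38). MNT passed with DESeq2 (adjusted p = 0.028). Nothing but the number ties same-numbered libraries together. Across the tested genes, the deviations of DMSO 1 and SF1-8 1 from their group means had a correlation of 0.0165. With 2 libraries a group, the second pair gives the same value. No other call on the 10 genes changed with the block. With 2 libraries a group, a 2-fold decrease of FOS, FOSB or MYC lay inside the 95% interval.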
